A study of Mus musculus with 3 samples.

Results

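Tfap2a, Tfap2b and Tfap2c encode 3 members of the AP-2 family of transcription factors, and their chromatin was followed here in nuclei of mouse dorsal skin by single-nucleus ATAC-seq, an assay of open chromatin that uses a DNA-cutting transposase. The members were chosen by gene name. Every deposited feature, a region of 500 bp, that overlapped a gene body or the 10 kb at each side of it was taken, which gave 64 of 315694 features: 29 for Tfap2a, 24 for Tfap2b and 11 for Tfap2c. All the mice carried Dct-rtTA and Tre-H2B-GFP, so that doxycycline, given at 20 mg per 100 ml of drinking water for 5 days, labels the histones of cells using the Dct promoter with GFP, and GFP-positive nuclei were sorted. The groups were UVB (24 mice irradiated 3 times within a week at 2.2 mJ/cm2), anagen (8 mice in the growth phase of the hair cycle, started by Nair depilation and followed by the doxycycline) and telogen (12 mice in the resting phase). The age is given as 7 weeks in one label and 8 weeks in another. The mice of each group were pooled. Anagen and telogen came from 1 library, and the 2 technical replicates of UVB stand in 1 matrix, so that each group is 1 sample and the UVB exposure and the library cannot be told apart.

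AP-2 proteins bind DNA as dimers at GC-rich palindromes and act in surface ectoderm and neural crest, the source of pigment cells. AP-2 alpha is known in melanocytes as a partner of Mitf at pigment genes, AP-2 beta is also found in the melanocyte lineage, and AP-2 gamma is best known in trophoblast and epidermis. Open chromatin marks where regulators can reach a gene, and is not a measure of its transcription.

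Each barcode was counted once, which left 6553 UVB, 3753 anagen and 2042 telogen nuclei with 16182770, 10397896 and 5225945 counts. Nuclei were clustered without the 64 features and named from marker genes. The marker counts below use the same lists, so they are no separate check of the names. Melanocyte-like nuclei (clusters 1, 4 and 7) numbered 3001 in UVB, 1146 in anagen and 228 in telogen, and keratinocyte-like nuclei (clusters 3 and 10) numbered 1452, 328 and 439 in the same order. Of 13 melanocyte markers, 11, 13 and 13 were at least 2-fold higher in melanocyte-like nuclei than in the rest of UVB, anagen and telogen, against 0 of 14 keratinocyte markers in each group. Of 10 Schwann cell markers, 6 were also 2-fold higher there in each group, and in clusters 1 and 4 the median log2 fold of the Schwann list (1.11 and 0.49) came close to that of the melanocyte list (1.22 and 0.71); their part in the values below was not tested. Cluster 7 held 68.8% of anagen melanocyte-like nuclei, against 1.43% in UVB and 1.32% in telogen. Barcode names carry tag numbers that the labels do not explain, and 506 barcodes occurred in more than 1 group. Intervals are 95% intervals for counting error only; they treat counts as independent, while most counts come in pairs, so they are too narrow.

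Across the classes of nuclei, Tfap2a and Tfap2b were open in the 3 ectoderm-derived classes, melanocyte-like, keratinocyte-like and Schwann-like, while Tfap2c was open in keratinocyte-like nuclei and close to closed in melanocyte-like ones. In melanocyte-like nuclei the Tfap2a window held 319 CPM (counts in the window, scaled to 1000000 counts of the class) in UVB (interval 305 to 333), 242 in anagen (228 to 256) and 277 in telogen (224 to 339). In keratinocyte-like nuclei it held 264, 208 and 302 CPM in UVB, anagen and telogen. In Schwann-like nuclei it held 166, 210 and 310 CPM. Fibroblast-like nuclei were at 39.4 to 43.6 CPM and endothelial-like nuclei at 25.4 to 34.3 CPM over the groups, below the lower end of the interval of each of those 3 classes. The melanocyte-like over keratinocyte-like ratio of the whole window was 1.21 (1.12 to 1.30) in UVB, 1.16 (0.958 to 1.43) in anagen and 0.918 (0.729 to 1.15) in telogen. Summed over the window, Tfap2a thus stayed within 1.5-fold between the 2 classes, and only the UVB interval excluded 1. The keratinocyte-like class joins 2 clusters. Tfap2a held 262, 110 and 306 CPM in cluster 3 and 295, 244 and 282 CPM in cluster 10 in UVB, anagen and telogen. Cluster 10 made up 199 of the 328 anagen keratinocyte-like nuclei.

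Tfap2b held 96.8, 60.7 and 134 CPM in melanocyte-like nuclei of UVB, anagen and telogen. The keratinocyte-like values were 170, 189 and 152 CPM in the same order. By cluster they were 160, 164 and 139 CPM in cluster 3 and 280, 198 and 222 CPM in cluster 10. The ratio of the classes was 0.569 (0.508 to 0.638) in UVB, 0.321 (0.256 to 0.406) in anagen and 0.885 (0.631 to 1.22) in telogen. Tfap2b was therefore lower in melanocyte-like nuclei beyond counting error in UVB and anagen, and the telogen interval includes 1. Schwann-like nuclei were at 103, 176 and 79.2 CPM, and endothelial-like nuclei at 14.8 to 20.5 CPM.

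Tfap2c stood apart from both. It held 5.90 CPM in UVB (39 counts), 6.38 in anagen (31 counts) and 0 in telogen melanocyte-like nuclei, where the floor of 3 counts is 8.76 CPM and the upper end of the interval 10.8 CPM. The keratinocyte-like nuclei held 118, 104 and 138 CPM. The ratios were 0.0501 (0.0351 to 0.0697) in UVB and 0.0615 (0.0383 to 0.0970) in anagen. In telogen the ratio was 0.0632 with the 0 counts set to the floor of 3, which is a substituted value and not an upper limit. Endothelial-like nuclei, taken as a class that should lack the gene, held 25.4, 12.8 and 9.27 CPM. Myeloid and Langerhans-like nuclei held 10.9, 3.93 and 4.48 CPM (5, 1 and 5 counts). The melanocyte-like interval lay below the endothelial-like one in UVB (4.19 to 8.06 against 14.5 to 41.2 CPM) and overlapped it in anagen and telogen, so Tfap2c in melanocyte-like nuclei was not above the level of these classes beyond counting error. A fold of at least 1.5 in either direction between the classes was taken as a call. Of the 3 members, 2 were called lower in melanocyte-like nuclei of UVB, where 26.1% of tested genes were, 2 in anagen (24.3% of tested genes) and 1 in telogen (34.7%), and 0 were called higher, where 23.6%, 26.5% and 23.0% of tested genes were.

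**Figure D1:**
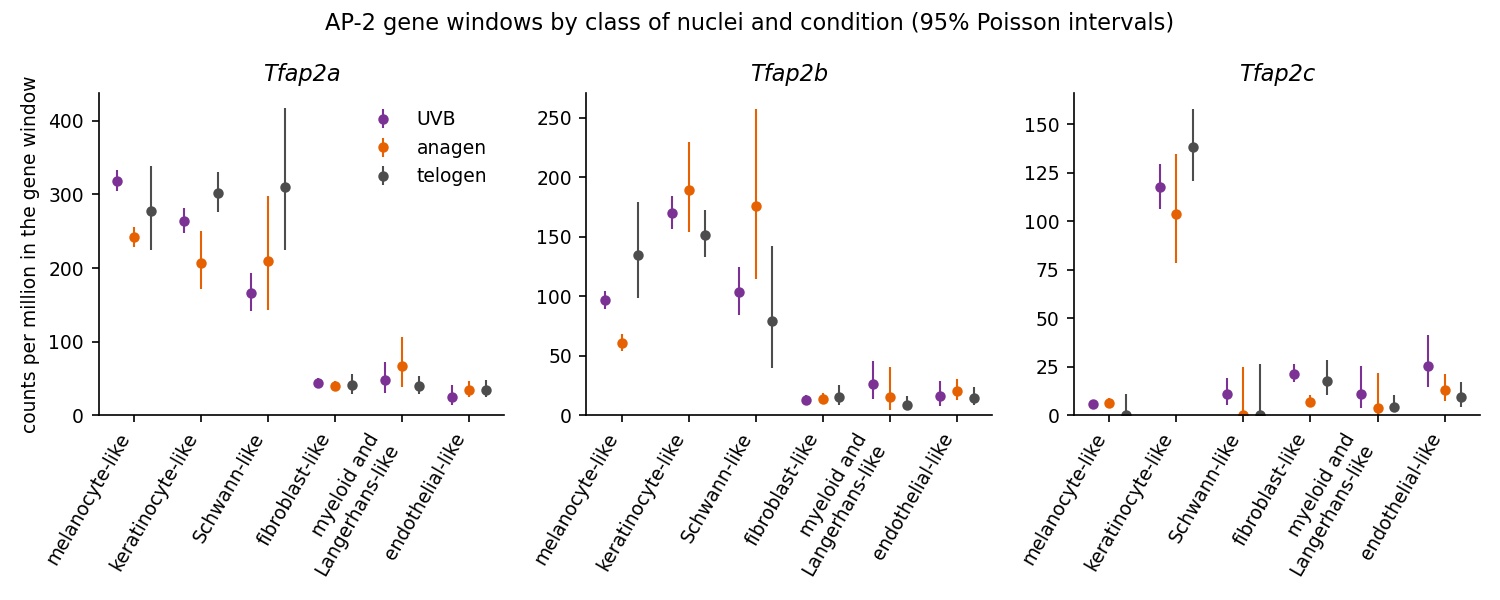
CPM in the 3 gene windows (y axis, from 0) for 6 classes of nuclei (x axis) in UVB, anagen and telogen; points are values and bars 95% Poisson intervals. Tfap2c is at 104 to 138 CPM in keratinocyte-like nuclei and at 6.38 CPM or less in melanocyte-like nuclei.

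Per feature, which allows for the different number of regions in each window, melanocyte-like nuclei of UVB held 11.0 CPM for Tfap2a, 4.03 for Tfap2b and 0.536 for Tfap2c. On that scale Tfap2a was at percentile 89.7 of 19369 genes, Tfap2b at percentile 58.1 and Tfap2c at percentile 19.5. In keratinocyte-like nuclei of UVB the 3 values were 9.12, 7.08 and 10.7 CPM per feature, so the members lay close together there and spread over a wide range in melanocyte-like nuclei. Thinned to 1000 counts per nucleus, 20.2% of UVB, 17.8% of anagen and 20.5% of telogen melanocyte-like nuclei had a count in the Tfap2a window (28.2%, 35.6% and 21.1% before thinning, at median depths of 1695, 2313.5 and 1366 counts). Endothelial-like nuclei thinned the same way stood at 1.97%, 2.55% and 2.81% (2.34%, 3.02% and 3.24% before thinning, at median depths of 1129, 1046 and 1344 counts). Thinning left out 458, 162 and 67 shallower melanocyte-like nuclei and 173, 390 and 190 endothelial-like ones. The melanocyte-like intervals for Tfap2a overlapped (18.6% to 21.8% in UVB, 15.4% to 20.3% in anagen and 14.5% to 27.6% in telogen). They treat the nuclei of 1 pooled sample as independent, so they cannot tell whether the groups differ. For Tfap2b the thinned shares were 6.61% in UVB (5.67% to 7.64%), 3.35% in anagen (2.32% to 4.68%) and 8.07% in telogen (4.37% to 13.4%). The UVB and anagen intervals of Tfap2b did not overlap.

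The similar summed level of Tfap2a in melanocyte-like and keratinocyte-like nuclei came in part from different regions of the gene. Feature 16 of Tfap2a (chr13:40730547-40731047, inside the gene body; exons are not annotated in the table used) was the most open of the 64 features in melanocyte-like nuclei, with 92.7 CPM in UVB, 52.7 in anagen and 114 in telogen. Keratinocyte-like nuclei held 15.2, 13.0 and 19.5 CPM there. The ratio was 6.09 (4.60 to 8.23) in UVB, 4.06 (1.94 to 10.2) in anagen and 5.83 (3.55 to 9.67) in telogen, so the region was more open in melanocyte-like nuclei of every group. Its share of the whole Tfap2a window in UVB was 29.1% in melanocyte-like and 5.75% in keratinocyte-like nuclei. Over the 3 groups together, Schwann-like nuclei held 43.3 CPM, fibroblast-like nuclei 6.42 and endothelial-like nuclei 2.78. Clusters 1, 4 and 7 held 104, 71.8 and 49.0 CPM on the same scale, so cluster 7 lay close to the Schwann-like level.

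Feature 17 (chr13:40731432-40731932), which starts 385 bp beyond the end of feature 16, had the opposite pattern. It held 8.01, 9.26 and 2.92 CPM in melanocyte-like nuclei of UVB, anagen and telogen. The keratinocyte-like values were 34.2, 14.8 and 52.9 CPM, with ratios of 0.235 (0.166 to 0.327), 0.625 (0.291 to 1.53) and 0.0552 (0.00138 to 0.316). The anagen interval includes 1 and rests on 8 counts in keratinocyte-like nuclei, and the telogen value on 1 count in melanocyte-like nuclei. Further features at least 2-fold lower in melanocyte-like nuclei of UVB were feature 19, at 0.453, feature 8, at 0.208, and features 25, 26 and 27 at and beyond the upper end of the gene body, at 0.223, 0.281 and 0.195. On the melanocyte side were feature 2 (5.16), feature 6 (3.16), feature 11 (6.67) and feature 15 (12.9, from 49 counts in melanocyte-like and 2 in keratinocyte-like nuclei), which ends 27 bp below feature 16.

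Both classes shared feature 10, inside the gene body, and the features over the starts given in RefSeq's promoter table. Feature 10 (chr13:40722878-40723378) held 63.9, 39.3 and 35.0 CPM in melanocyte-like nuclei and 47.9, 46.3 and 44.7 CPM in keratinocyte-like nuclei of UVB, anagen and telogen. It was also the most open Tfap2a feature of endothelial-like nuclei, at 11.5 CPM over the 3 groups together. Feature 20 (chr13:40733684-40734184), over one of the 2 starts, held 51.6, 36.0 and 52.5 CPM in melanocyte-like nuclei and 39.0, 29.6 and 33.4 CPM in keratinocyte-like nuclei. Feature 21 (chr13:40734461-40734961), over the other start, held 4.99, 1.85 and 5.84 CPM in melanocyte-like nuclei and 3.44, 1.85 and 4.41 CPM in keratinocyte-like nuclei. Of these 2 starts, the one at position 40733795 was thus the open one in both classes and in every group. Tfap2a lies on the minus strand, so the upper end of its body, under feature 25, is its upstream end. That end is not a start in the promoter table. Feature 25 held 5.44, 4.32 and 0 CPM in melanocyte-like nuclei and 24.4, 31.5 and 24.5 CPM in keratinocyte-like nuclei, so the classes did not share this region. Gm26688, a non-coding gene annotated over the same stretch, shares features 14 to 21, and ATAC-seq does not tell strands apart.

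The 250 bases before the 2 starts of Tfap2a and the 1 start of Tfap2b in the promoter table are printed. The window before the open Tfap2a start lies inside feature 20. Feature 21 ends at position 40734961 and feature 22 starts at 40735581. Most of the window before the other start therefore lies in no feature, and its openness was not measured. The sequences come from RefSeq on GRCm38.p6. Capitals mark each match to CTCCTC on either strand, a letter run picked after reading the sequences.
Tfap2a open start, chr13:40733796-40734045, minus strand: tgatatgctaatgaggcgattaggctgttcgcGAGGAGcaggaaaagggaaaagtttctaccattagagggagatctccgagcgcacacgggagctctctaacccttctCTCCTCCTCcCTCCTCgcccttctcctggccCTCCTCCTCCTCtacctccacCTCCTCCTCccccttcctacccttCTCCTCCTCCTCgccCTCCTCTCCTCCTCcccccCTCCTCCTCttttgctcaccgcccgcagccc
Tfap2a other start, chr13:40734921-40735170, minus strand: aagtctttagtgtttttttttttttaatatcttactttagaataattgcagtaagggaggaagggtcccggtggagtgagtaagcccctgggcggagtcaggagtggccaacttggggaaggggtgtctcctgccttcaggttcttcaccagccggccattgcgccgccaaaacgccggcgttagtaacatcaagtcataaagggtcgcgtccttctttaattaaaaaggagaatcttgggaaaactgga
Tfap2b start, chr1:19211804-19212053, plus strand: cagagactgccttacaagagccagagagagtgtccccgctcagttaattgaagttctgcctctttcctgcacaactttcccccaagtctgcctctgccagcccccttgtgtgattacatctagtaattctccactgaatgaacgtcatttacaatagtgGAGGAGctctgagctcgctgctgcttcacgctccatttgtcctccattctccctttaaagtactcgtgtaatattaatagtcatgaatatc

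The window of the open Tfap2a start had 17 matches to CTCCTC or its reverse complement GAGGAG, many of them overlapping, the other Tfap2a start 0 and the Tfap2b start 1. At least 1 match was found in 28.7% of 32851 windows of the same length before annotated starts. The share of C and T on the printed strand was 70.0% for the open start, 47.2% for the other and 58.8% for Tfap2b, against a median of 50.0% over all windows. An AP-2 palindrome (GCCNNNGGC, its own reverse complement), which 13.7% of all windows held, was in none of the 3. The E-box forms CATGTG (12.3% of windows) and CACGTG (6.02%), a SOX site (CATTGT, 10.7%) and an AP-1 site (TGANTCA, 6.75%), each searched on both strands, had no match either. No match says only that these letters are not in these windows.

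**Figure D2:**
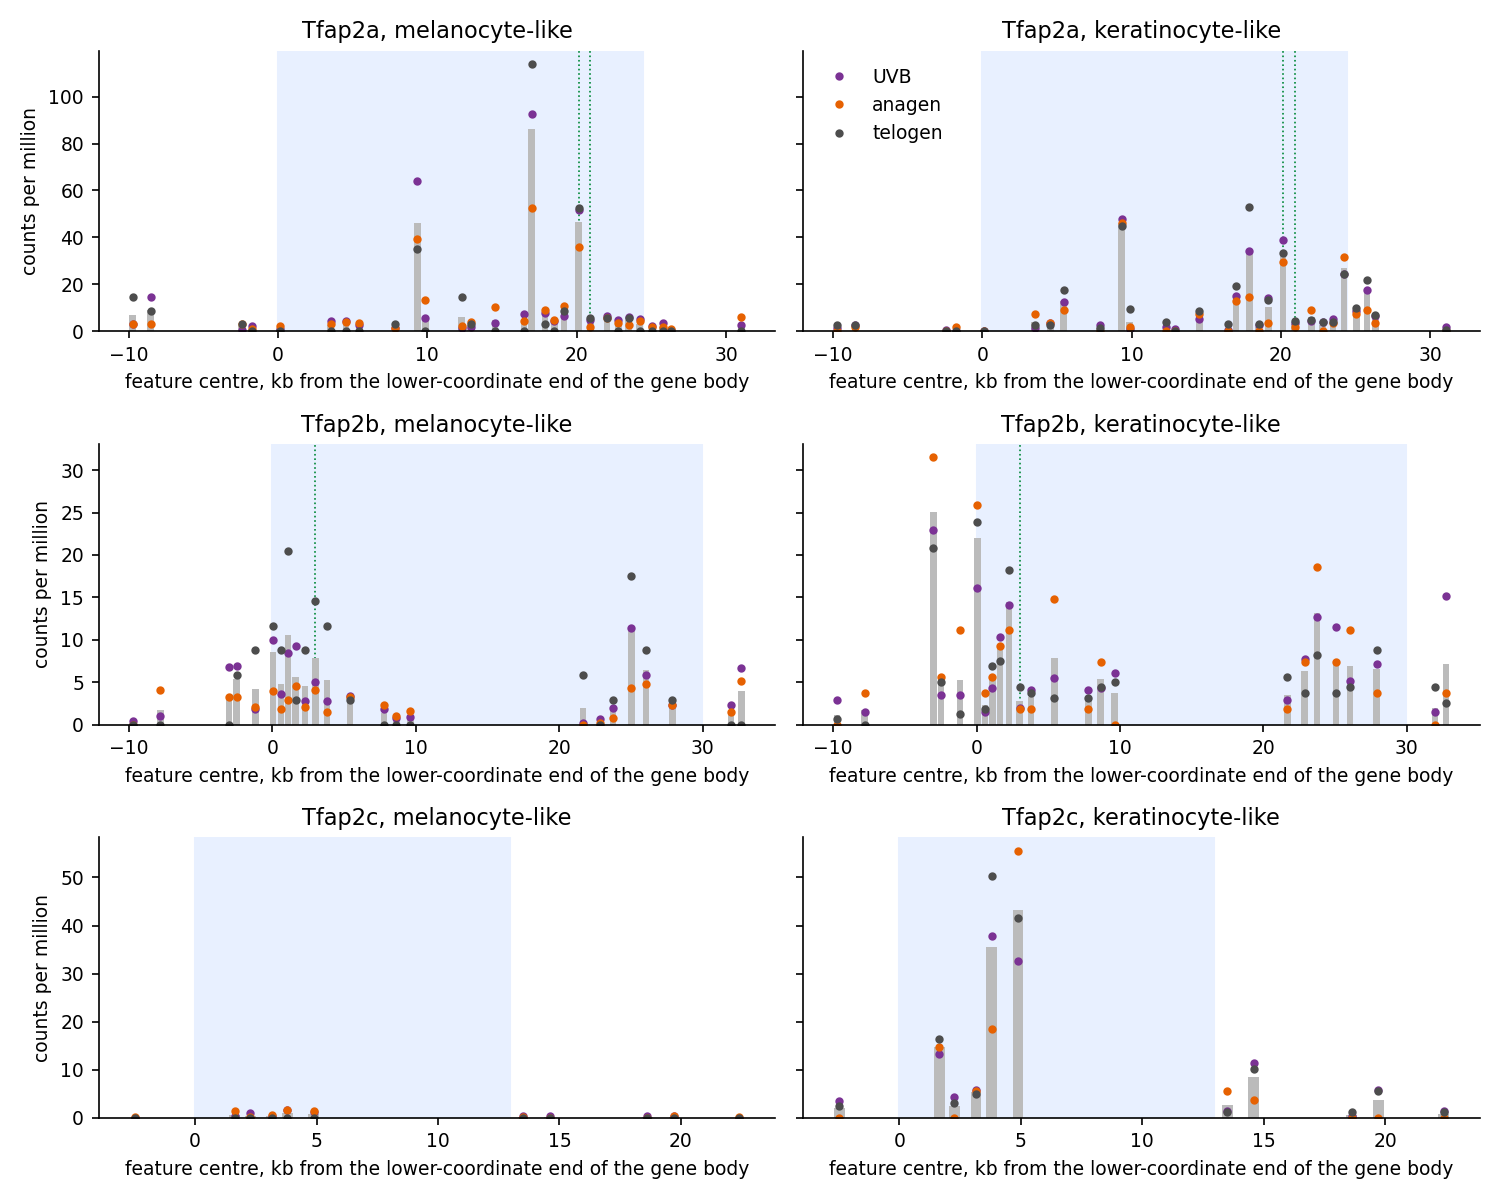
CPM of each feature (y axis, scale shared within a gene) by the distance of its centre from the lower-coordinate end of the gene body (x axis, kb) in melanocyte-like (left) and keratinocyte-like nuclei (right); bars are the mean of the 3 groups, points the groups, shading the gene body and dotted lines features over an annotated start. The tallest Tfap2a feature on the left reaches 114 CPM in telogen and the same feature on the right 19.5 CPM.

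Over all features with at least 30 counts in the 2 classes, 39 of 64 were compared in UVB nuclei, and 7 were at least 2-fold higher in melanocyte-like nuclei, where 33.9% of tested features were, while 16 were at least 2-fold lower (32.1% of tested features). Tfap2a split evenly, with 5 higher and 6 lower of 20. Of 15 Tfap2b features, 2 were higher and 6 lower, and all 4 Tfap2c features were lower. Those 4 (features 2, 5, 6 and 8) held 2, 11, 8 and 3 counts in melanocyte-like nuclei. In keratinocyte-like nuclei they held 46, 132, 114 and 40 counts. They reached 30 counts only through the keratinocyte-like class, so the filter favoured this outcome. In anagen 3 were higher (34.1% of tested features) and 4 lower (6.76%) of 12. In telogen 1 was higher (10.0%) and 8 lower (43.8%) of 11. The counts of these small groups follow which features reached 30 counts.

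**Figure D3:**
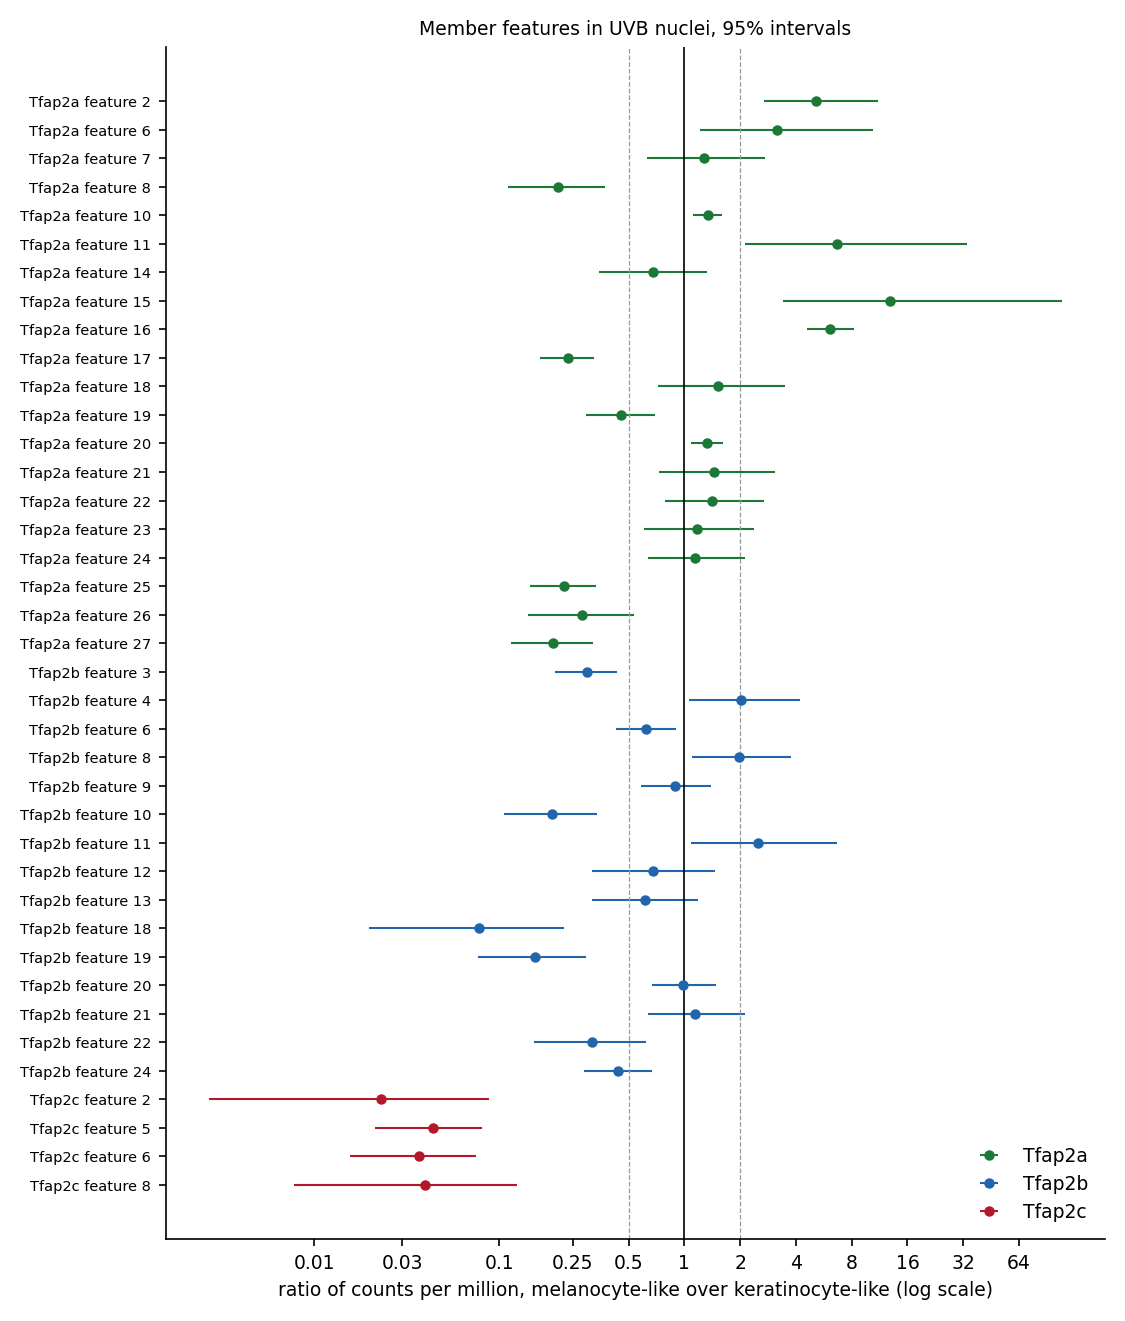
Ratio of CPM in melanocyte-like over keratinocyte-like nuclei of UVB (x axis, log scale) for the 39 features with at least 30 counts, in order of position within a gene; bars are 95% intervals and dashed lines mark 2-fold. Tfap2a features lie on both sides of 1, with feature 16 at 6.09 and feature 17 at 0.235, and the 4 Tfap2c features lie at 0.0439 or less.

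Tfap2b had no single dominant region. Its signal was spread over a cluster of features at the start of the gene and a group near its far end. Feature 20 of Tfap2b (chr1:19233702-19234202) held 11.3, 4.32 and 17.5 CPM in melanocyte-like nuclei and 11.5, 7.41 and 3.78 CPM in keratinocyte-like nuclei of UVB, anagen and telogen. Feature 6 (chr1:19208711-19209211) lay over the lower end of the gene body, which on the plus strand is its upstream end. That end is not a start in the promoter table. Feature 6 held 9.98, 3.91 and 11.7 CPM in melanocyte-like nuclei and 16.1, 25.9 and 23.9 CPM in keratinocyte-like nuclei. Feature 11 (chr1:19211656-19212156), over the annotated start printed above, held 4.99, 4.12 and 14.6 CPM in melanocyte-like nuclei, against 2.01, 1.85 and 4.41 CPM in keratinocyte-like nuclei. Its ratio in UVB was 2.48 (1.08 to 6.65), with 7 counts in keratinocyte-like nuclei. The regions further upstream were mixed in UVB. Feature 6 was at 0.621 (0.428 to 0.903) and feature 3 (chr1:19205643-19206143) at 0.296 (0.201 to 0.432), while feature 4 (chr1:19206163-19206663) was at 2.02 (1.05 to 4.19) and feature 8 (chr1:19209753-19210253) at 1.97 (1.10 to 3.74). Feature 10 (chr1:19210928-19211428), next below the annotated start, was also lower in melanocyte-like nuclei, at 0.193 (0.106 to 0.338).

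Toward the far end of Tfap2b, features 18 and 19 were at 0.0780 (0.0198 to 0.224) and 0.156 (0.0769 to 0.294) in UVB. Feature 20, the next one, was at 0.987 (0.664 to 1.49). Neighbouring regions of Tfap2b thus also differed in which class they were open in, although 6 of its 15 compared features, and not one dominant region, were on the keratinocyte side.

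For Tfap2c the keratinocyte-like signal was concentrated in features 5 (chr2:172549221-172549721) and 6 (chr2:172550312-172550812). Feature 5 held 1.66, 1.65 and 0 CPM in melanocyte-like nuclei and 37.9, 18.5 and 50.3 CPM in keratinocyte-like nuclei of UVB, anagen and telogen. Feature 6 held 1.21, 1.44 and 0 CPM in melanocyte-like nuclei and 32.7, 55.6 and 41.5 CPM in keratinocyte-like nuclei. The 2 features made up 32.2% and 27.8% of the window in keratinocyte-like nuclei of UVB. Feature 2 (chr2:172547068-172547568), the third by mean level, held 0.302, 1.44 and 0 CPM in melanocyte-like nuclei and 13.2, 14.8 and 16.4 CPM in keratinocyte-like nuclei. Each of these regions was below the level of keratinocyte-like nuclei in melanocyte-like nuclei of every group.

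Between the groups, the Tfap2 windows of melanocyte-like nuclei changed little, apart from Tfap2b in anagen. Tfap2a was at 0.871 (0.707 to 1.09) in anagen over telogen, 1.15 (0.936 to 1.43) in UVB over telogen and 1.32 (1.23 to 1.42) in UVB over anagen. None of these passed 1.5-fold, and the first 2 intervals include 1. Tfap2b was at 0.452 (0.331 to 0.631) in anagen over telogen, 0.721 (0.534 to 0.994) in UVB over telogen and 1.59 (1.39 to 1.84) in UVB over anagen. So 1 of the 3 members was called lower in anagen over telogen (19.5% of tested genes were lower and 27.2% higher), 0 in UVB over telogen (16.2% higher, 13.8% lower) and 1 higher in UVB over anagen (15.3% higher, 22.0% lower). These 3 comparisons share their groups. Tfap2c was at 0.924 (0.562 to 1.53) in UVB over anagen, and no fold over telogen is given because telogen had 0 counts.

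The Tfap2b levels were also read within each melanocyte-like cluster, and the part of the cluster shares in the group ratios was not tested. In cluster 1, Tfap2b held 87.1 CPM in UVB, 74.7 in anagen and 123 in telogen. In cluster 4 it held 119, 155 and 152 CPM. Cluster 7, which was nearly all anagen, held 55.3 CPM in anagen and 83.9 in UVB. In clusters 1 and 4 together, which every group held, UVB over anagen was 0.965 (0.737 to 1.29) and anagen over telogen 0.764 (0.508 to 1.16), so neither ratio passed 1.5-fold there. In cluster 1 alone anagen over telogen was 0.610 (0.350 to 1.06), past 1.5-fold with an interval that includes 1, and in cluster 4 alone it was 1.02 (0.534 to 2.00). Tfap2a held 354, 296 and 306 CPM in cluster 1, 253, 144 and 209 CPM in cluster 4, and 218 CPM in UVB and 241 in anagen in cluster 7. For Tfap2a the UVB over anagen ratio in clusters 1 and 4 together was 1.31 (1.10 to 1.56).

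**Figure D4:**
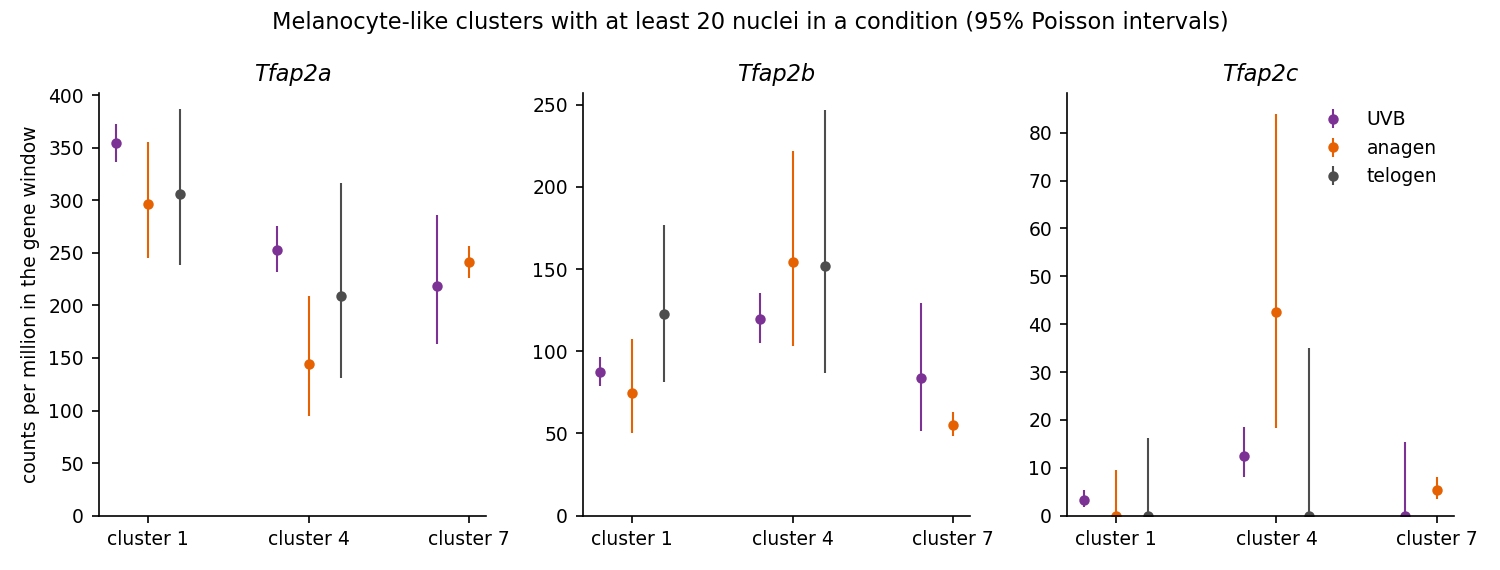
CPM of the 3 gene windows (y axis, from 0) in the 3 melanocyte-like clusters (x axis) in UVB, anagen and telogen, with 95% Poisson intervals; a cluster with under 20 nuclei in a group is left out. Tfap2b is at 55.3 CPM in anagen nuclei of cluster 7 and at 155 CPM in anagen nuclei of cluster 4.

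By tag number, for tags with at least 20 melanocyte-like nuclei, Tfap2a in melanocyte-like nuclei lay between 254 and 418 CPM over 15 UVB tags (median 324), between 154 and 297 CPM over 7 anagen tags (median 201) and between 240 and 330 CPM over 3 telogen tags (median 284). The ranges of the groups overlap. Tfap2b lay between 0 and 120 CPM in UVB (median 84.7), between 29.3 and 72.4 CPM in anagen (median 53.6) and between 111 and 240 CPM in telogen (median 112). The anagen and telogen ranges of Tfap2b did not overlap, and UVB overlapped both. These ranges rest on few counts. The 3 telogen tags held 4, 9 and 16 Tfap2b counts, with the highest CPM from 4 counts, and the lowest anagen tag held 2. The tags are not replicates and were not tested.

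Single features changed more than the windows. In UVB over anagen, 33 of the 64 features had at least 30 counts in melanocyte-like nuclei; 9 were at least 2-fold higher (13.3% of tested features) and 4 at least 2-fold lower (31.8%). Feature 2 of Tfap2a (chr13:40705037-40705537), centred below the gene body at -8.52 kb from its lower end, had the highest ratio. It held 14.8 CPM in UVB, 3.09 in anagen and 8.76 in telogen (3 counts), and UVB over anagen was 4.80 (2.77 to 8.90). In cluster 1 it held 66 counts in UVB, 0 in anagen and 3 in telogen, and in cluster 4 it held 32, 2 and 0. Feature 14 of Tfap2a (chr13:40728085-40728585) had the lowest ratio, with 3.48 CPM in UVB, 10.5 in anagen and 0 in telogen, and UVB over anagen at 0.331 (0.193 to 0.552). Features 11, 29 and 13 of Tfap2a were lower too, at 0.436, 0.456 and 0.464.

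Feature 16 of Tfap2a was at 1.76 (1.52 to 2.04) in UVB over anagen and at 0.463 (0.330 to 0.666) in anagen over telogen. This was the one feature of 8 tested that was at least 2-fold lower in anagen over telogen (11.6% of tested features). One other was higher (16.4%), feature 17, at 3.17 (0.541 to 128) with 1 count in telogen. Within cluster 1, feature 16 held 105 CPM in UVB, 97.9 in anagen and 109 in telogen. In cluster 7 it held 46.2 CPM in UVB and 49.3 in anagen. The lower anagen level of the class was not seen in cluster 1, and the part of cluster 7 in it was not tested. In cluster 4 the values were 71.8, 37.3 and 133 CPM, from 143, 7 and 14 counts.

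Of the 11 Tfap2b features compared in UVB over anagen, 6 were at least 2-fold higher and 0 lower. They were feature 8 at 2.94 (1.61 to 5.72), feature 20 at 2.62 (1.60 to 4.48), feature 6 at 2.55 (1.51 to 4.50), feature 4 at 2.11 (1.17 to 4.00), feature 3 at 2.07 (1.15 to 3.92) and feature 9 at 2.04 (1.23 to 3.48). Feature 13 had the lowest ratio, at 1.01 (0.507 to 2.06). In clusters 1 and 4 alone, 2 of 9 Tfap2b features were higher and 2 lower, against 14.2% and 9.06% of all features tested there. In UVB over telogen, 2 of 23 member features were higher (11.1% of tested features) and 2 lower (10.1%), each with 7 counts or fewer in telogen. The extremes were feature 9 of Tfap2b, at 3.16 (0.546 to 127), and feature 11 of Tfap2b, at 0.342 (0.133 to 1.12), and both intervals include 1.

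**Figure D5:**
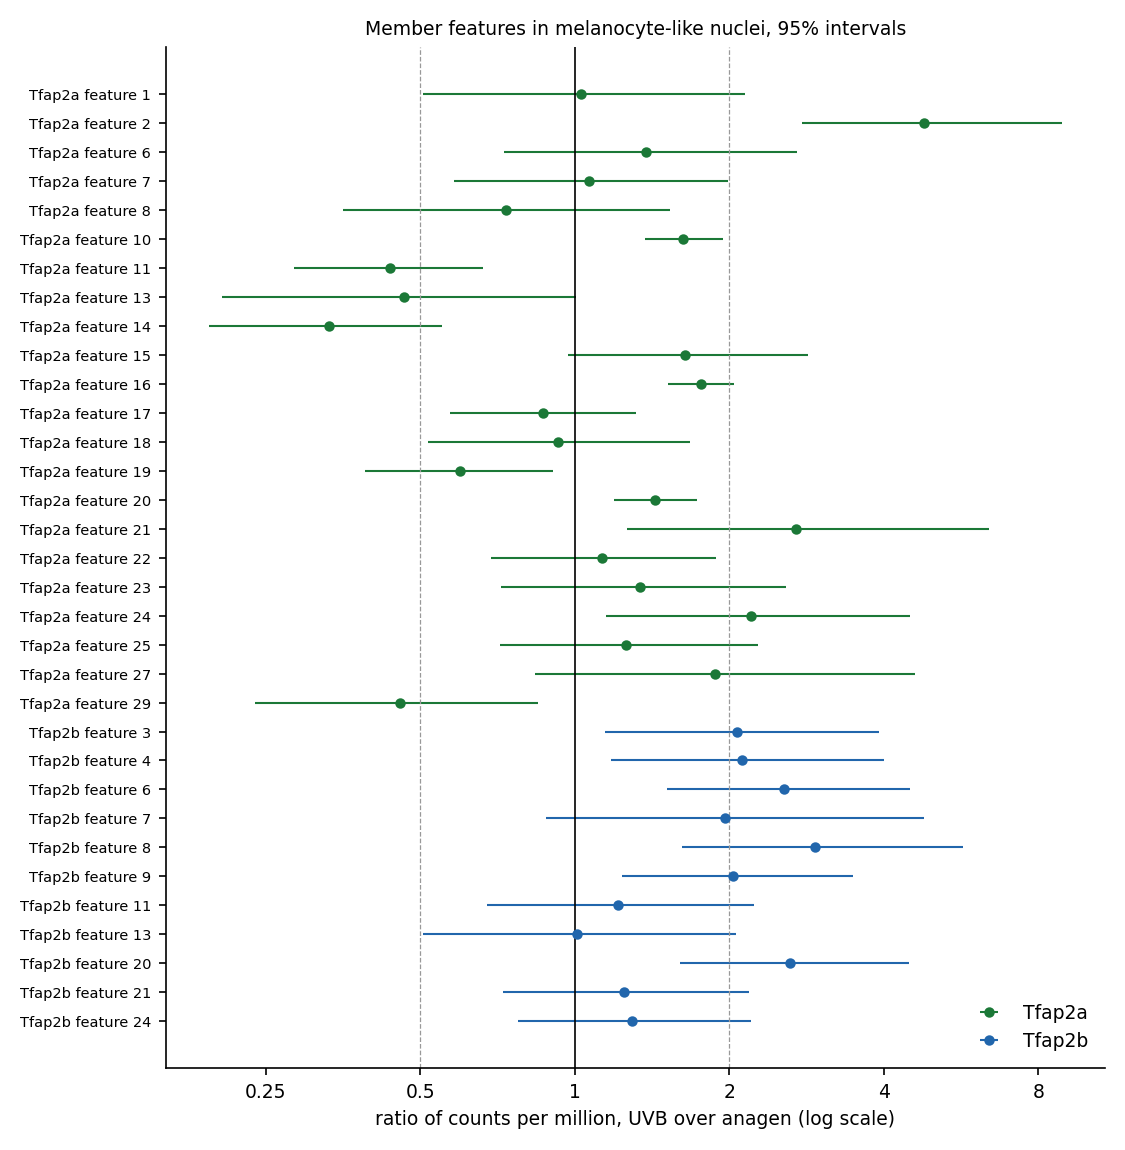
Ratio of CPM in UVB over anagen melanocyte-like nuclei (x axis, log scale) for the 33 features with at least 30 counts; bars are 95% intervals and dashed lines mark 2-fold. The 11 Tfap2b features lie between 1.01 and 2.94, and the Tfap2a features lie on both sides of 1.

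Over all nuclei, without classes, Tfap2b and Tfap2c were called higher in UVB over anagen (9.88% of tested genes were higher and 11.5% lower), Tfap2c was called lower in anagen over telogen (15.6% lower, 11.8% higher), and 0 members were called in UVB over telogen (8.42% higher, 14.7% lower). UVB over anagen was 1.45 (1.37 to 1.55) for Tfap2a, 1.82 (1.64 to 2.02) for Tfap2b and 2.79 (2.30 to 3.41) for Tfap2c. Anagen over telogen was 0.259 (0.208 to 0.322) for Tfap2c, at 12.5 CPM in anagen and 48.2 CPM in telogen. In keratinocyte-like nuclei the same Tfap2c comparisons were 1.13 (0.856 to 1.53) and 0.750 (0.549 to 1.01). Keratinocyte-like nuclei made up 22.2% of UVB, 8.74% of anagen and 21.5% of telogen nuclei, and the part of these shares in the all-nuclei values was not tested.

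Relatives and partners of the members were taken from a list of 11 genes, 10 of which were compared in melanocyte-like nuclei. In anagen over telogen 3 were at least 1.5-fold higher and 3 lower, near the shares of all tested genes (27.2% higher and 19.5% lower), with a median log2 ratio of -0.11, against 0.06 over all genes. Kctd15, whose protein inhibits AP-2, was at 0.536 (0.407 to 0.718) and Kctd1, its relative and likewise an AP-2 inhibitor, at 2.08 (1.64 to 2.67). Cited2, a coactivator of AP-2, was at 0.432 (0.339 to 0.559), and Wwox, which binds AP-2 gamma, at 0.619 (0.514 to 0.750). The acetyltransferase gene Crebbp was at 1.96 (1.28 to 3.14) and the relative Tfap2e at 1.69 (0.804 to 4.27, with 7 counts in telogen). In UVB over telogen 0 of 10 passed 1.5-fold in either direction (median 0.02, against 0.01 over all genes). Of all tested genes, 16.2% were higher and 13.8% lower in that comparison. In UVB over anagen Kctd15 was at 2.30 (2.06 to 2.57) and Cited2 at 2.95 (2.66 to 3.27), where 15.3% of tested genes were higher. Another 3 were lower (22.0% of tested genes), Kctd1 at 0.658, Crebbp at 0.610 and Tfap2e at 0.498. Cited1, Cited4 and Ep300 stayed within 1.5-fold in each of the 3 comparisons, and Tfap2d was too low to compare.

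Among 10 pigment-cell genes with a known AP-2 link, 6 were higher in anagen over telogen and 0 lower (median log2 0.81, against 0.06 over all genes, of which 27.2% were higher and 19.5% lower). They were Trpm1, a channel gene and Mitf target, at 4.35 (3.40 to 5.66), Mc1r, the melanocortin receptor, at 3.03 (2.02 to 4.75), Tyr, the tyrosinase gene, at 2.82 (1.90 to 4.38), and Tyrp1, Kit and Sox10 at 2.10, 1.83 and 1.67. In UVB over anagen 6 were lower and 0 higher (median -0.63, against -0.06 over all genes, of which 15.3% were higher and 22.0% lower), with Trpm1 at 0.264 (0.248 to 0.280). In UVB over telogen 1 was higher (16.2% of tested genes were), Tyr at 1.59 (1.07 to 2.48). Dct, Pmel, Mlana and Mitf stayed within 1.5-fold in each. All the genes of this list but Mc1r are also among the markers that named the melanocyte-like clusters. Cluster 7 held 68.8% of the anagen melanocyte-like nuclei, against 1.43% in UVB and 1.32% in telogen, and its part in these values was not tested. Of 5 epidermal genes with a known AP-2 link, all 5 were higher in UVB over anagen (median 0.90, with 15.3% of all tested genes higher), led by Trp63, the regulator of epidermal fate, at 4.42 (3.47 to 5.69) from 469 counts in UVB and 78 in anagen. Krt5 and Krt14 had 48 and 52 counts in UVB, 22 and 15 in anagen, and 0 in telogen, and the UVB over anagen interval of Krt5, 0.949 to 2.79 around 1.60, includes 1. In anagen over telogen 2 of the 3 compared, Trp63 and Cebpa, were lower, at 0.393 and 0.414 (19.5% of tested genes were lower). In UVB over telogen, where 16.2% of tested genes were higher, Trp63 was at 1.74 (1.02 to 3.20). The summed keratinocyte markers in melanocyte-like nuclei were at 320 CPM in UVB, 193 in anagen and 210 in telogen, with 6 of 14 at 0 in telogen, and their part in the epidermal values was not tested.

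Across 16 pairs of a class and a group with at least 100 nuclei, the log2(CPM + 1) levels of Tfap2a and Tfap2b followed each other (Pearson r = 0.93), while Tfap2c followed neither closely (r = 0.15 with Tfap2a and 0.33 with Tfap2b). These pairs share libraries and depth, and the values are descriptions. Among 13681 genes with at least 500 counts, the most alike to Tfap2a were Hmgcs1, a gene of cholesterol synthesis (r = 0.93), Elovl6, a fatty acid elongase (0.91), and Cdh1, which encodes E-cadherin (0.91). For Tfap2b they were Hmgcs1 (0.93), Tekt5 (0.90) and Shank2 (0.90). For Tfap2c they were Wnt9b, a Wnt ligand (0.95), Perp, a desmosome-associated membrane protein (0.95), and Sdc1, the syndecan-1 gene (0.93).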

How the data were processed

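The authors deposited whole-number counts per 500 bp feature and nucleus, 1 matrix per group, on mm10, with coordinates given as in the files. Bowtie2, SAMtools and MACS2 are named in the submitters' processing notes, without versions; counting, cut-site shifts and any doublet removal before deposit: not given in the sources used here. A doublet caller was not run. No count was above 4, and the value 2 made up 59.1% to 62.6% of entries.

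Of 6615 UVB, 5474 anagen and 2585 telogen entries, 62, 1721 and 543 second copies of a barcode after # were removed within a group. Features in at least 20 nuclei, without the member windows and the top 1%, were weighted by TF-IDF, reduced to 30 components (1 left out for depth) and clustered (15 neighbours, Leiden resolution 0.6). A cluster was named from the marker list with the highest median fold, if at least 3 markers were at 2-fold and no other list had more markers among its top 10 genes; cluster 11 (71 nuclei) stayed unnamed. Clusters 1 and 4 lead the Schwann list by under 0.3 (log2) and keep the melanocyte name, which another clustering seed changed for 1 such cluster. The tools were Python 3.11.15, scipy 1.17.1, scikit-learn 1.9.0 and leidenalg 0.10.2.

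Counts were summed over nuclei and given as CPM. With 1 sample a group there is no test: each ratio carries an exact 95% interval from the conditional binomial, and each share a Clopper-Pearson interval. A gene or feature was compared with at least 30 counts over both sides, and called past 1.5-fold (gene) or 2-fold (feature); 0 was set to a floor of 3 counts. Intervals were tried on simulated counts, drawn independently and in pairs, and the coverage found is not printed. Gene positions are RefSeq's on GRCm38.p6. Named were the members, the listed genes, the 3 most alike genes, and per member the features at starts, the 3 most open, and the highest and lowest ratio; further features named were chosen after their values were seen. Members and lists were chosen with earlier results of these data known. One listed gene is not reported here by name. Motifs in the features were not searched, since no genome was used here.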

Additional observations from a re-analysis of the deposited data

How the results depend on the processing

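The 3 members' group ratios in melanocyte-like nuclei were recomputed under the settings below, and those not printed stayed within the interval given in the report; the list genes and the features' group ratios were not recomputed this way. Over all nuclei, Tfap2a was at 1.49 in UVB over telogen, and UVB over anagen stood at 1.45, Tfap2b at 0.740 in anagen over telogen and 1.35 in UVB over telogen, and Tfap2c at 2.79 in UVB over anagen. In the clusters that every group holds, Tfap2b was at 0.764 in anagen over telogen and 0.965 in UVB over anagen, where the direction turned, and Tfap2c at 0.440 in UVB over anagen. In UVB over anagen, Tfap2a was at 1.21 without nuclei above 3 times the median count, 1.16 with another clustering seed and 1.10 when scaled to counts near gene ends, a scale on which Tfap2b was at 1.32; those counts made up 44.1% of UVB, 36.6% of anagen and 44.9% of telogen totals. Settings chosen after seeing the data were cluster 1 only (UVB over anagen 1.20 for Tfap2a and 1.17 for Tfap2b) and cluster 4 only (anagen over telogen 0.688 for Tfap2a and 1.02 for Tfap2b; UVB over anagen 1.76 for Tfap2a, 0.773 for Tfap2b and 0.294 for Tfap2c), of which the 2 Tfap2b values turned direction, leaving out UVB tag number 19, and using telogen tag numbers 8 to 10 only. The cause was not tested. For Tfap2c over telogen no ratio could be given at 0 counts. Genes past 1.5-fold in UVB over telogen numbered 7953 with genes of at least 1 count, against 4589 with at least 30. The melanocyte-like over keratinocyte-like ratio in UVB, under settings all added after seeing the data, was 3.03 to 7.81 for Tfap2a feature 16. For feature 17 it was 0.123 (cluster 7) to 0.353 (cluster 4). The UVB ratio of feature 20 turned to 0.823 in cluster 4 and that of feature 10 to 0.613 (0.243 to 1.29) in cluster 7. The cluster 7 value rests on 7 counts in that cluster, and its interval includes 1.

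No paired analysis was possible because each group is 1 sample, and leaving out a replicate was not possible for the same reason. With 342623 counts in telogen melanocyte-like nuclei, against 6614729 in UVB and 4858623 in anagen, telogen limits the precision of every comparison with it.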
